A study of Rattus norvegicus with 25 samples.

Results

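Dusp1 (ENSRNOG00000003977) is 1 of the 32623 genes in the deposited tables of a study of the rat hippocampus after the forced swim test (FST), a procedure that places a rat in a cylinder of water and was used here as an acute stressor. It was chosen because it stood high 20 min after the test, so its levels in the 3 groups are given as a description and only the comparison of the 24-h group with controls was tested. PolyA RNA of the hippocampus of 19 male Sprague Dawley rats was sequenced. The rats of both FST groups had a longer pretest swim on the day before the test, and the times given count from the test. The 6 control rats had no FST (rats 21, 22, 24, 25, 27 and 28), 7 rats were decapitated 20 min after it (the 20-m group, rats 1, 2, 5, 6, 7, 10 and 12) and 6 rats 24 h after it (the 24-h group, rats 13, 14, 15, 17, 18 and 19). There were 25 libraries, since rats 10, 21 and 27 were each sequenced in 3 runs, which were summed here. In the sample labels, batch 1 holds 3 rats of each group, batch 2 holds 1 control rat and 3 rats each of the 20-m and 24-h groups, and batches 3 to 5 hold the runs of rats 10, 21 and 27. RNA came from tissue with all its cell types, so a change in the share of a cell type and a change in RNA per cell cannot be told apart in any value below.

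Dusp1 encodes a dual-specificity phosphatase of the cell nucleus, also called MAP kinase phosphatase 1. MAP kinases are switched on when a threonine and a tyrosine of their activation loop are phosphorylated, and the enzyme removes both phosphates, so it acts as a brake on the pathway. The gene belongs to the immediate early genes, which are transcribed within minutes of a stimulus without new protein synthesis. It is known to respond to MAP kinase and cAMP signals and to glucocorticoids, and in the brain its mRNA is known to rise with neuronal activity.

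The sequence before the start of Dusp1 is shown because cAMP signals are known to act through a short DNA word that stands in it, and because the early response genes compared below can be searched for the same word. The 250 bases before the RefSeq start (GRCr8, chr10:17184603-17184852, plus strand) are printed 5′ to 3′. The capitals mark the cAMP response element TGACGTCA (CRE), its half-site TGACG and the E-box CACGTG, found on either strand. The build differs from the Rnor 6.0 assembly of the counts, and the position refers to GRCr8 only.
Dusp1 promoter: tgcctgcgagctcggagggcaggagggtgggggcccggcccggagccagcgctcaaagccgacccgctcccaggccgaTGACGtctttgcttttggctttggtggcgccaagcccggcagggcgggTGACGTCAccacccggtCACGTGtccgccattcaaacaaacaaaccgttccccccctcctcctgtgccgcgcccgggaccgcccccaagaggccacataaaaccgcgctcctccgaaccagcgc

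Counted from the start, with -1 as the base just before it, the CRE lies at -124 to -117. A separate half-site lies at -172 to -168, and the half-site also matches within the CRE on each strand. The E-box lies at -107 to -102. These motifs were picked with the sequence in view, and a match is a description of letters, not of binding. Over 300-base windows of 33469 RefSeq promoters (250 bases before and 50 after the start), 1.83% held the CRE, 21.2% the half-site and 6.42% the E-box. The Dusp1 window also held the GC box GGGCGG, as did 33.1% of windows. It held no AP-1 word TGANTCA (7.33% of windows), no full palindromic glucocorticoid response element (0.0149%) and no TATA box TATAAA (14.2%). Nor did it hold the CArG box CCWWWWWWGG, where W is A or T (1.64%), or the CCAAT box (37.5%). Its GC content was 68.0%, against a median of 51.7%. Windows were found for 7 of the 10 genes named here, and the only other CRE among them was in the window of Btg2. Fos, Klf2 and Atf3 had no window and were not searched. The half-site stood in 5 of the 7 windows, those of Dusp1, Btg2, Apold1, Ccn1 and Sik1.

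Dusp1 was a gene of moderate level in this tissue, and its counts were free of ambiguity between genes. The annotation gives it 1 transcript of 1936 bases. RSEM's expected count was a whole number in 25 of 25 libraries, with a posterior SD of 0 in each. Library totals per rat ran from 6217562 to 9032877 counts. Control rats had 36 to 94 Dusp1 counts, the 20-m group 159 to 287 and the 24-h group 49 to 94. In control rats Dusp1 exceeded 38.0% to 54.0% of the genes with a TPM above 0, in the 20-m group 67.5% to 77.5%, and in the 24-h group 42.1% to 52.3%.

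Levels between rats are given as CPM, the Dusp1 count relative to the library total after TMM scaling. In control rats, Dusp1 stood at 5.90 CPM in rat 21, 6.19 in rat 22, 12.5 in rat 24, 7.12 in rat 25, 12.2 in rat 27 and 11.5 in rat 28. The control rats thus had 3 lower and 3 higher values, a split seen after the fact and not tested. Batch 1 and batches 3 to 5 each hold control rats of both kinds, and batch 2 holds 1 control rat. In the 24-h group, Dusp1 stood at 11.1 CPM in rat 13, 10.2 in rat 14, 11.8 in rat 15, 9.08 in rat 17, 10.3 in rat 18 and 6.96 in rat 19. All of these lay inside the range of the control rats. In the 20-m group, Dusp1 stood at 27.3 CPM in rat 1, 36.4 in rat 2, 24.9 in rat 5, 27.1 in rat 6, 27.5 in rat 7, 33.7 in rat 10 and 25.4 in rat 12. The lowest rat of this group was 1.99 times the highest of the other 12 rats, and no value overlapped. The gene was chosen on these rats, and the share of all genes that separate in this way was not counted.

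**Figure D1:**
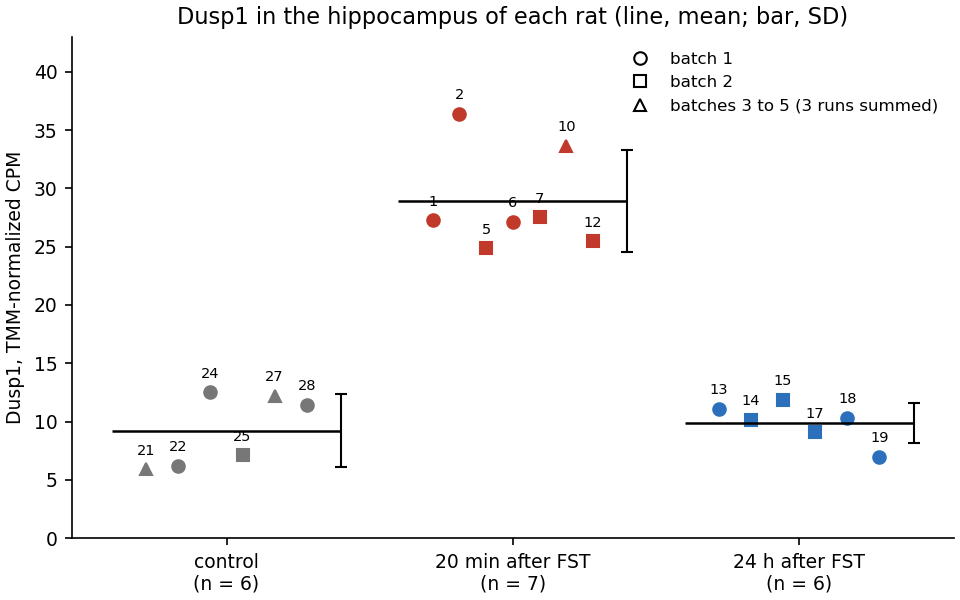
Dusp1 in TMM-normalized CPM (vertical axis) in each rat of the 3 groups, numbered by rat, with marker shapes for the batch, a line for the group mean and a bar for the SD. The 7 rats of the 20-m group sit between 24.9 and 36.4 CPM, above all other rats, and the control rats between 5.90 and 12.5 CPM.

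The order of the group means was control, 24-h group, 20-m group. Control rats averaged 9.23 ± 3.14 CPM (SD, n = 6), the 24-h group 9.91 ± 1.72 CPM (SD, n = 6) and the 20-m group 28.9 ± 4.37 CPM (SD, n = 7). The first 2 neighbours in this order did not differ beyond their spread. Per transcript length, the means were 6.72 ± 2.60 TPM in control rats, 7.08 ± 1.21 TPM in the 24-h group and 20.0 ± 3.94 TPM in the 20-m group.

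The comparison of the 20-m group with controls was the one that chose the gene. In the fit of edgeR over all 19 rats with group and batch as terms, the log2 fold change was 1.69 (standard error 0.180, 95% interval 1.32 to 2.07), a fold of 3.23 (2.49 to 4.20). It was the ninth largest rise of 13908 genes tested. At an adjusted p under 0.05 and a fold over 1.5, 6 genes or 0.0431% were called higher in this comparison and 0 lower, while 1050 genes (7.55%) had an unadjusted p under 0.05. Within batches, the difference in mean log2 CPM was 1.61 in batch 1 (3 against 3 rats), 1.82 in batch 2 (3 against 1) and 1.95 in batches 3 to 5 (1 against 2).

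Against the 24-h group, the 20-m group was higher by 1.51 on the log2 scale (standard error 0.176, 95% interval 1.15 to 1.88), a fold of 2.86. This comparison shares the rats of the 20-m group with the one above and is likewise a description. Here 5 genes or 0.036% were called higher and 0 lower. Within batches the difference in mean log2 CPM was 1.66 in batch 1 and 1.31 in batch 2, each with 3 rats a group.

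The 24-h group asks whether Dusp1 was still away from control a day after the test swim. It was not detectably so. The log2 difference came to 0.18, with a standard error of 0.205 (edgeR, adjusted p = 1.00, unadjusted p = 0.396) and with a 95% interval of -0.25 to 0.61, or a fold of 0.840 to 1.52. The control rats are those of the comparison with the 20-m group, and the 24-h rats those of the comparison between the FST groups. No gene was called in this comparison in edgeR (0% of 13908), while 441 genes (3.17%) had an unadjusted p under 0.05. With labels exchanged within batches 1 and 2 only, the difference in mean log2 CPM was 0.13, with 6 against 4 rats (exact permutation test over 80 arrangements, 2-sided, p = 0.588, smallest possible 0.0125). The sign was not the same in both batches. The difference in mean log2 CPM was -0.05 in batch 1 (3 against 3 rats) and 0.52 in batch 2 (3 against 1), and the 24-h group has no rat in batches 3 to 5.

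The spread of Dusp1 between rats was wider than that of most genes near its mean level over all rats, and the control rats held 66.6% of the summed squared residuals. After group and batch were removed, the SD of log2 CPM was 0.36. Counting error alone gives 0.16 at these counts. Of the 500 tested genes nearest in mean level, 90.8% had a smaller SD, and their median was 0.20. Within groups, with batch not removed, the SD of log2 CPM was 0.50 in control rats, above 94.8% of these neighbours. It was 0.21 in the 20-m group (above 40.2%) and 0.26 in the 24-h group (above 66.4%). These neighbours were matched on the mean over all rats, which lies above the control and 24-h levels and below the 20-m level. Against the 500 genes nearest in the mean of each group itself, a choice made after seeing the data, the Dusp1 SD was above 94.6% in control rats, 53.4% in the 20-m group and 58.8% in the 24-h group. The difference in spread between groups was not tested, and the 24-h group spans fewer batches than the others.

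The 3 rats with repeat runs show how far 1 library can be trusted for this gene. In rat 10 of the 20-m group, Dusp1 stood at 34.5 CPM in run 1, 40.1 in run 2 and 30.8 in run 3, from 57, 66 and 123 counts. In control rat 27 the runs gave 17.6, 12.4 and 8.11 CPM, from 34, 23 and 21 counts. In control rat 21 they gave 7.74, 5.63 and 4.77 CPM, from 14, 10 and 12 counts. Run 3 was the lowest in each of the 3 rats. The SD of log2 CPM over the runs was 0.19 in rat 10, 0.34 in rat 21 and 0.54 in rat 27, where counting error alone gives 0.17, 0.42 and 0.29.

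**Figure D2:**
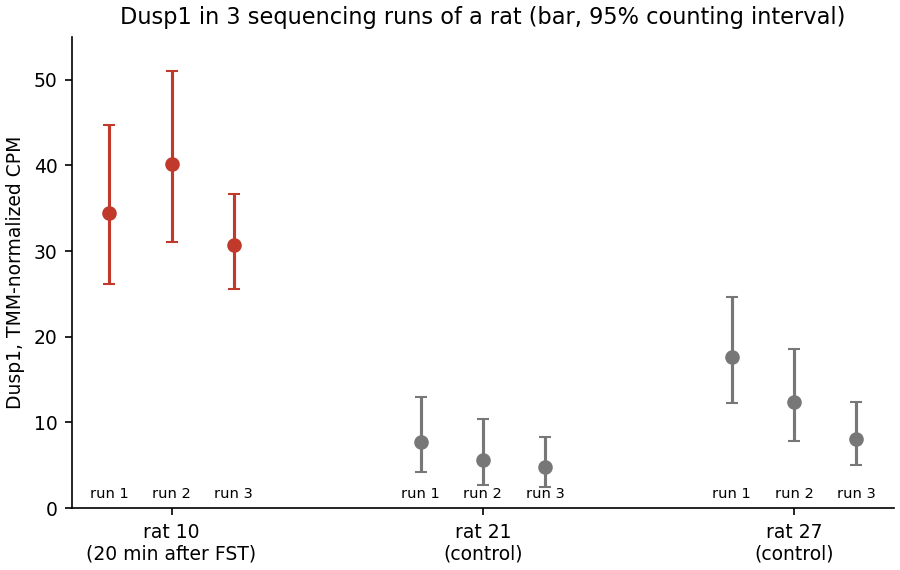
Dusp1 in TMM-normalized CPM (vertical axis) in each of 3 sequencing runs of rats 10, 21 and 27, with bars for the 95% counting interval of the run's Dusp1 count. Every run of rat 10 lies above every run of both control rats, and rat 27 lies above rat 21 in each run.

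Both control rats were sequenced in the same batches, and their order was the same in all runs. Rat 27 was 2.51 times rat 21 in TPM in run 1, 2.43 times in run 2 and 1.91 times in run 3. Over the summed reads the ratio of Dusp1 counts per total count was 2.12 (95% interval 1.41 to 3.24, exact binomial test, p = 0.000155). That test compares the reads of these 2 rats and covers counting error only. The runs of rat 27 differed by more than counting error (chi-square test, p = 0.0173), those of rat 21 did not (chi-square test, p = 0.450). The interval leaves that spread out and is too narrow.

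Of the early response genes named in the study, 9 others could be matched to an identifier with a single name. They are the transcription factor genes Fos, Atf3, Klf2 and Klf4, the endothelial gene Apold1, the matrix protein gene Ccn1, the genes of the mRNA decay factors Zfp36 and Btg2, and the kinase gene Sik1. The study picked them on these same rats as moving at 20 min, so their direction there is not independent evidence. Ccn1 and Atf3 also passed the filter on low counts only through the 20-m group. At both thresholds 4 of the 9 were called higher in the 20-m group than in controls (Apold1, Ccn1, Sik1 and Zfp36) and 0 lower, beside 0.0431% of all genes called higher, and the median log2 fold change was 1.14 beside -0.0014 over all genes. With each rat left out in turn, Apold1, Ccn1 and Zfp36 were called in 19 of 19 fits and Sik1 in 13, its call being lost without control rat 21, 22, 25 or 27 or without rat 7 or 10 of the 20-m group. In the 24-h group 0 of 9 were called in edgeR, with a median of 0.11, and 2 of 9, Sik1 and Zfp36, had an unadjusted p under 0.05 (0.0165 and 0.0374 from edgeR, adjusted p = 1.00 from edgeR), beside 3.17% of all genes. Rat 13 stood apart in Sik1, at 17.5 CPM against 8.19 to 9.22 CPM in the other 5 rats of the 24-h group. Without it the unadjusted p from edgeR was 0.104 for Sik1, whose log2 fold change went from 0.55 to 0.32, and 0.0564 for Zfp36. Between the FST groups, 3 of 9 were called higher at 20 min (Apold1, Btg2 and Ccn1), beside 0.036% of all genes, with a median of 0.89 beside -0.0016. Apold1 and Ccn1 were called in 19 of 19 fits with 1 rat left out and Btg2 in 13, its call being lost without rat 5, 6, 7, 13, 18 or 19.

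Per transcript length, Dusp1 was the most abundant of the 10 genes in 5 of 7 rats of the 20-m group. Btg2 was the most abundant in the other 2. In control rats Dusp1 had ranks 1 to 4 and was highest in 1 of 6, rat 27, and in the 24-h group it was highest in 0 of 6. The next highest means at 20 min were 17.7 ± 3.98 TPM for Btg2, 15.8 ± 5.75 TPM for Klf2 and 12.6 ± 3.13 TPM for Apold1 (SD, n = 7). Klf2 and Btg2 started higher, with control means of 8.04 and 10.9 TPM, whereas Apold1 started at 2.51 TPM.

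**Figure D3:**
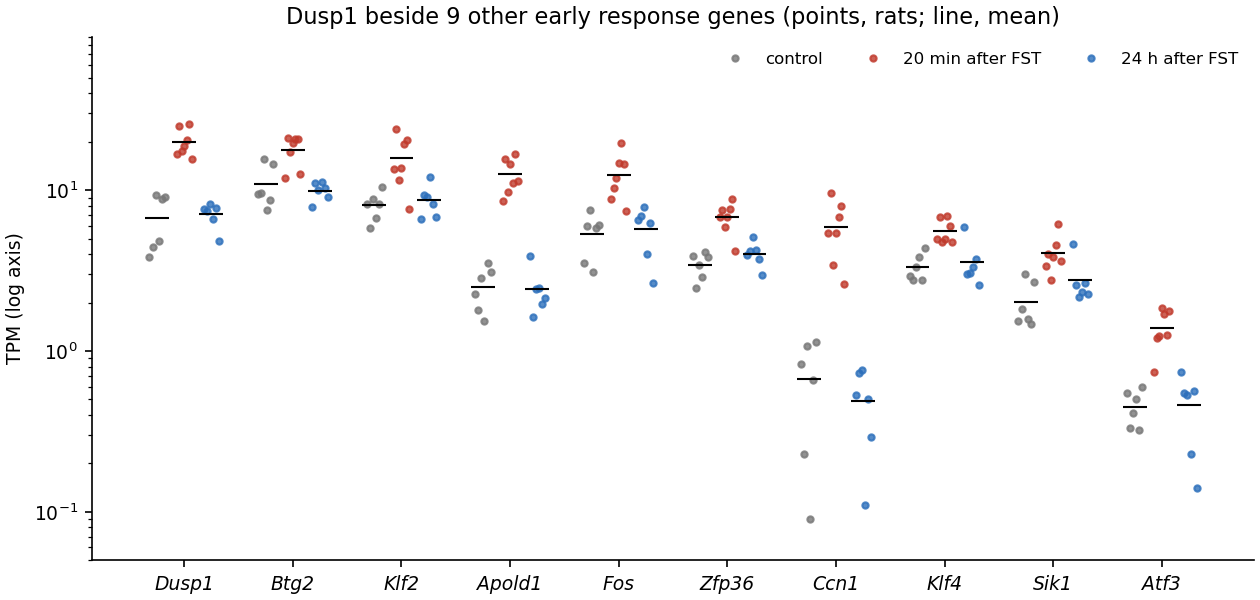
TPM on a log axis (vertical) of Dusp1 and 9 other early response genes (horizontal) in each rat, coloured by group, with a line for the group mean. Dusp1 has the highest mean of the 10 genes in the 20-m group (20.0 TPM), and Btg2 has the highest in control rats (10.9 TPM).

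Over all 19 rats, with batch removed and group kept, the named genes most like Dusp1 among 12456 genes with a mean of at least 20 counts were Apold1 (Pearson's r 0.95, rank 1), Ccn1 (r 0.95, rank 2) and Zfp36 (r 0.91, rank 3). The genes at ranks 4 and 5 have no name in the sources used here. These likenesses include the group difference that chose the genes and rest on shared libraries, so they are given with no test.

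Whether Dusp1 and these genes also deviated together within groups was examined on residuals, after group and batch were removed. Across 13907 other genes, the residual r with Dusp1 had a median of 0.00, with 95% of genes between -0.48 and 0.45, and 50.3% were positive. The 9 named genes had 9 positive values, with a median of 0.44. For Ccn1, r was 0.61 (permutation p = 0.0199) and Spearman's rho 0.64 (permutation p = 0.0120), above 99.6% of genes. Ccn1 had only 1 to 12 counts in control rats and 1 to 9 in the later FST group, so its residuals there rest on few reads. Without the earlier FST group Ccn1 did not pass the filter on low counts. Its r and rank among all genes therefore cannot show whether it followed Dusp1 outside that group. For Fos, r was 0.57 (permutation p = 0.0217) and rho 0.54 (permutation p = 0.0392). For Apold1, r was 0.56 (permutation p = 0.0488) and rho 0.56 (permutation p = 0.0350). For Zfp36, r was 0.52 (permutation p = 0.0143) and rho 0.41 (permutation p = 0.0611). The p-values run over all 15552 rearrangements of rats within group and batch, 2-sided. Adjusted over all 13907 genes, each of these r and rho values had p = 0.896 or above by permutation, so none passed. The smallest permutation p possible was 6.43e-05, at which a single gene would still fail the adjustment. The adjusted values therefore cannot decide for single genes. With group means removed batch by batch, r was 0.58 for Ccn1 (permutation p = 0.0199) and 0.51 for Fos (permutation p = 0.0300). It was 0.58 for Apold1 (permutation p = 0.0603) and 0.56 for Zfp36 (permutation p = 0.0152).

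The other 5 were lower. Klf2 had an r of 0.44, Btg2 0.42, Sik1 0.40, Klf4 0.28 and Atf3 0.16, with permutation p-values of 0.0776 to 0.556. Atf3 had a mean of 8.42 counts per rat, the fewest of the 9. Without rats 21 and 19, the 2 farthest from the median in the Dusp1 residual, r was 0.83 for Ccn1, 0.60 for Zfp36, 0.54 for Apold1 and 0.31 for Fos. The permutation p of the Fos value was then 0.135. Without rat 19 alone r for Fos was 0.42 (permutation p = 0.0648), and without rat 21 alone it was 0.54 (permutation p = 0.0435). The unadjusted p of Apold1 was above 0.05 in 11 of 19 fits with 1 rat left out, those without any 1 of the 6 control rats (permutation p = 0.0653 to 0.112), without rat 1, 2 or 5, or without rat 13 or 15, and r stayed at 0.49 to 0.63. It was above 0.05 in 17 of all 30 alternatives. For Ccn1 it was above 0.05 without rat 22 (r 0.54, permutation p = 0.0594), and for Zfp36 in 0 of 19, with r from 0.40 to 0.70. The r of Sik1 was 0.63 without rat 27 (permutation p = 0.00373) and 0.28 without rat 24. That of Klf4 was 0.099 without rat 19 and 0.16 without rat 22, and that of Btg2 was 0.27 without rat 24. That of Klf2 was 0.54 without rat 21 and 0.53 without rat 27, each with permutation p = 0.0498. Within batch 1 (9 rats) all 9 values were positive, from 0.45 to 0.96. Within batch 2 (7 rats) 8 were positive, from -0.32 for Klf4 to 0.84 for Ccn1. Batches 3 to 5 hold too few rats.

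**Figure D4:**
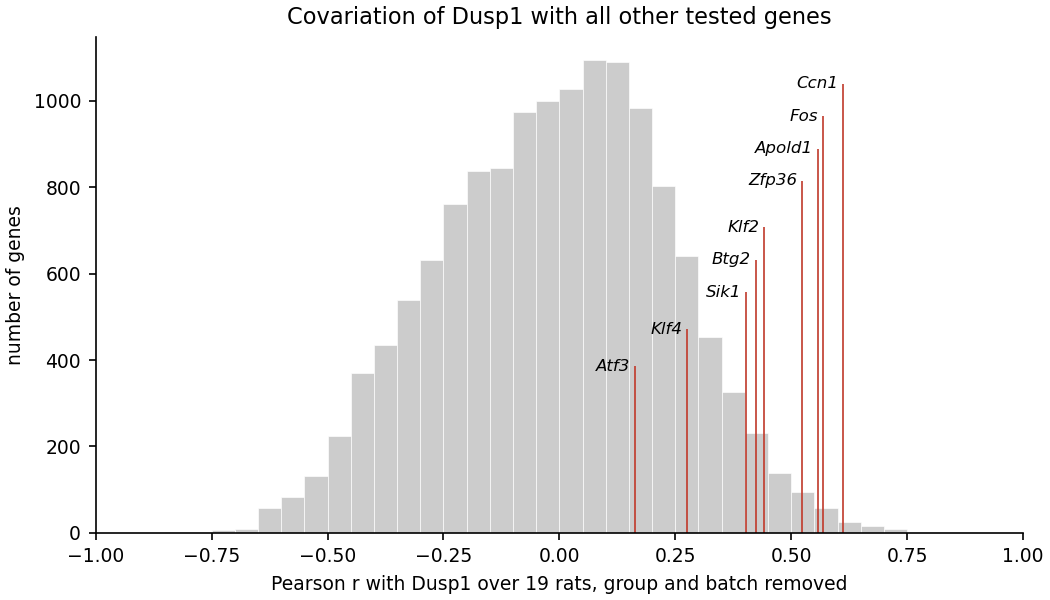
Number of genes (vertical axis) by Pearson's r of their residual with that of Dusp1 over 19 rats (horizontal axis), with lines for the 9 named genes. The lines all lie at positive r, from 0.16 for Atf3 to 0.61 for Ccn1, while the genes as a whole centre on 0.00.

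In single rats the deviations can be followed directly. The Dusp1 residual was -0.59 in rat 21, -0.53 in rat 19 and -0.50 in rat 22, the 3 lowest, and 0.49 in rat 24, 0.43 in rat 27 and 0.36 in rat 28, the 3 highest. Ccn1 deviated by -0.66 in rat 19 and -0.81 in rat 22 but by 0.26 in rat 21. It deviated by 0.71 in rat 24 and 0.72 in rat 28 but by -0.12 in rat 27. Rats 21 and 27, whose libraries came from the same runs, thus went against the relation for Ccn1. Ccn1 had 1 to 12 counts in the rats of the control and 24-h groups, so its residuals there rest on few reads. Apold1 was low in all of rats 19, 21 and 22 (-0.22, -0.20 and -0.36) and high in all of rats 24, 27 and 28 (0.21, 0.27 and 0.26). Its largest deviation was in rat 13 (0.60), where Dusp1 deviated by 0.12. Fos went against Dusp1 in rat 22 (0.20) and with it in the other rats named for Ccn1. Zfp36 went against Dusp1 in rat 21 (0.069) and with it in the others, though by only 0.0043 in rat 27.

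**Figure D5:**
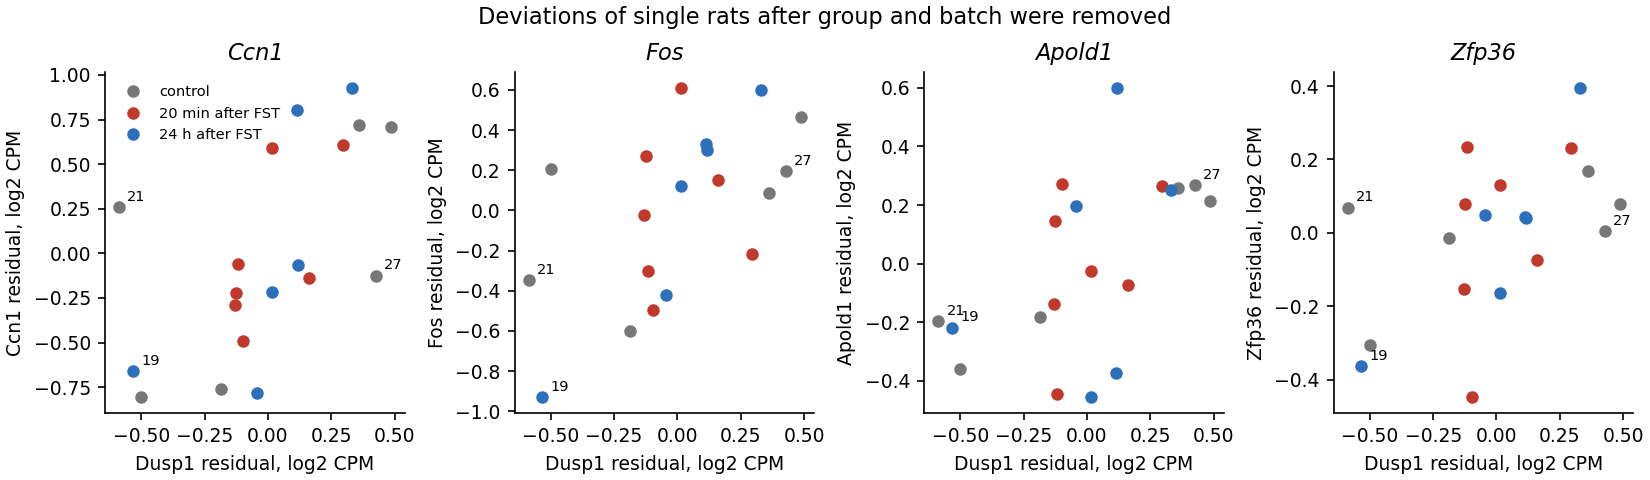
Residuals in log2 CPM after group and batch were removed, of Dusp1 (horizontal axes) and of Ccn1, Fos, Apold1 and Zfp36 (vertical axes), 1 point per rat coloured by group, with rats 19, 21 and 27 numbered where space allows. The control rats span the widest range of Dusp1, from -0.59 to 0.49.

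No single partner of Dusp1 passed a test across all genes. In edgeR, with the Dusp1 residual as a term beside group and batch, 0 of 13907 genes passed an adjusted p under 0.05 in either direction (0%). At an unadjusted p under 0.05 there were 122 genes with a positive slope (0.877%) and 309 with a negative one (2.22%). By permutation of r, 741 genes (5.33%) had a p under 0.05 and 0 an adjusted p under 0.05, with a lowest adjusted p of 0.896. A single gene at the smallest possible permutation p, 6.43e-05, would not pass that adjustment, so the permutation could hardly have given another result. The highest r among genes with at least 20 counts were 0.86 for ENSRNOG00000013379 and 0.80 for ENSRNOG00000008584, and the lowest were -0.80 for ENSRNOG00000015894 and -0.74 for ENSRNOG00000005695, none of which has a name in the sources used here. With control rats left out, an alternative chosen after seeing the data, r was 0.74 for Ccn1, 0.70 for Zfp36, 0.65 for Fos and 0.37 for Apold1 over 13 rats.

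Of 10 MAP kinase phosphatase genes listed for the pathway, Dusp1 alone could be matched to an identifier. The MAP kinases and their kinases, the glucocorticoid-induced genes, and the markers of endothelium, glia, neurons and blood cells were not analysed here, because names were at hand for 10 of the 148 listed genes. The part of cell composition in these values was therefore not tested.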

How the data were processed

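PolyA RNA of the hippocampus of 19 rats gave 25 libraries, which were grouped by the sample labels. Reads were trimmed by the authors (AdapterRemoval V2) and quantified with STAR and RSEM on Rnor 6.0, annotation release 93. The authors deposited expected counts, without normalization, and TPM values for each gene. For STAR and RSEM no version is named in these sources. Runs of a rat were summed and counts rounded. The filter filterByExpr (minimum count 10, minimum total 15) left 13908 of 32623 genes. Counts were scaled by TMM and fitted by the quasi-likelihood method of edgeR, with group and batch as terms, batches 3 to 5 as 1 level and Benjamini-Hochberg adjustment. Log2 CPM used a prior count of 2. Intervals and limits from counts cover counting error only. R 4.3.3, edgeR 4.0.16, limma 3.58.1, DESeq2 1.42.0, sva 3.50.0 and SciPy 1.17.1 were used, and scripts were tested on simulated data.

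The gene, lists and alternatives were chosen with earlier results of these data known. The rule for named genes took Dusp1, the genes of the study's table with an unambiguous name, the 5 most alike in pattern, and the 10 highest and 5 lowest residual correlations, of which unnamed ones were limited to 2 a direction. The main paper text counts 6 rats at 20 min in one place and 7 in another, and all 7 were used. Alternatives were other scalings, filters, batch terms and batches, DESeq2, limma voom, ComBat before limma, TPM, single runs, a replicate block and each rat left out.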

Additional observations from a re-analysis of the deposited data

Results flagged for a closer look

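In the 24-h group, Sik1 in rat 13 stood at 17.5 CPM, with the next rat at 9.22 CPM, a gap of 0.889 of the group's range. Klf4 in the same rat stood at 10.4 CPM, with the next rat at 6.10 CPM, a gap of 0.736 of the range. Both gaps exceed Dixon's 95% value for 6 samples (0.625). These were the 2 such values in 30 groups of values examined (10 genes in 3 groups), and chance gives about 1 in 20. Dusp1 in rat 13 (11.1 CPM) lay within its group.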

How the results depend on the processing

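The 20-m group lay above controls in Dusp1 by 1.54 to 1.81 and above the 24-h group by 1.36 to 1.67 on the log2 scale over 33 alternatives each. The difference of the 24-h group from controls failed the threshold in all 33, with -0.070 (adjusted p = 0.965 from edgeR) from batch 1 alone, the only change of sign. It was 0.057 to 0.310 with each rat left out. With a replicate block of 25 libraries the 3 values were 1.74, 0.22 and 1.52. That block joins the runs of 1 rat, and replicate numbers are otherwise rat numbers, which pair no rats. Genes called between the 20-m group and controls, counted in either direction, numbered 6, all higher. The count was 10 without the filter on low counts, 15 in DESeq2, 17 after ComBat, and 4 from batches 1 and 2 or from run 1 alone. It was 0 from batch 1, and 4 to 8 with 1 rat left out. Between the FST groups, again in either direction, 5 were called, all higher at 20 min. The count was 9 without the filter, 13 with the replicate block, 27 in DESeq2 and 44 after ComBat. It was 0 from batch 1, and 4 to 9 with 1 rat left out, the 9 without rat 2. Covariation gave 0 genes under all 31 alternatives, although with log2(TPM + 1) 2267 genes had a positive and 134 a negative slope at an unadjusted p under 0.05. The residual r of Atf3 ran from -0.047 (without rat 19 of the 24-h group) to 0.378 in the 13 fits with 1 rat left out that kept the gene. Without any 1 rat of the 20-m group other than rat 1, Atf3 fell below the filter on low counts. From run 1 alone, r was 0.42 for Ccn1, 0.34 for Zfp36 and 0.46 for Apold1, all then above a permutation p of 0.05. The cause of these changes was not tested. At 36 to 94 counts in control rats, counting error limits what a single rat can show.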
